A study of Mus musculus with 4 samples.

Results

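Chemokines are small secreted proteins that guide migrating cells, and the 10 genes described here encode 8 of them together with the cytokines Csf1 and Il6. The genes are Ccl2, Ccl5, Ccl7, Cxcl1, Cxcl5, Cxcl10, Cxcl12, Cx3cl1, Csf1 and Il6. They were chosen by name, with earlier results of these data known. Every transcript listed under 1 of these names was taken, and the transcripts of a gene were summed. They are 10 of 21878 genes with mRNA values, and all 10 are among the 13199 genes that were tested.

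The samples came from C3H10T1/2, a mouse mesenchymal stem cell line, and total RNA was sequenced after removal of ribosomal RNA with a stranded kit. In the untreated group there were 2 samples, replicates 1 and 2, for which no culture time of their own is listed. In the 5-AZA group there were 2 samples, replicates 101 and 102, which received 5-azacytidine (5-AZA), an inhibitor of DNA methylation, at 20 μmol/L for 72 hours and were then kept in fresh medium for 21 days. Time in culture and 5-AZA therefore cannot be told apart. The replicates are described as biological repeats, and whether they were separate cultures is not given in the sources used here, so the p-values measure only the spread between these samples, which may be technical. The question was which of these mRNAs differed between 5-AZA-treated and untreated cells.

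Levels are given as FPKM, fragments scaled to transcript length and library size, so they can be compared between genes. The FPKM of all genes summed to 343955 in untreated replicate 1, 334568 in untreated replicate 2, 328410 in 5-AZA replicate 101 and 361664 in 5-AZA replicate 102. Since FPKM is not a count, how many reads lie under any given value is unknown, while the steps of the circRNA values in RPM, reads scaled to library size, correspond to 92975678, 93426482, 92903364 and 93920706 reads in the same order. Changes are log2 fold changes of 5-AZA against untreated on the log2(FPKM + 0.1) scale, which understates the change of genes with low values. The limit on low values was a mean of 0.1 FPKM across all samples, and genes below it were not tested. A gene was called where its limma p-value, adjusted over the 13199 genes by the Benjamini-Hochberg method, was below 0.05 and its change was over 2-fold. With 2 samples against 2, an exact permutation test of a single gene cannot give a p-value below 0.333.

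CC chemokines, CXC chemokines and the CX3C chemokine differ in the spacing of their conserved cysteines and act through G protein-coupled receptors on leukocytes and other cells. Stromal and mesenchymal cells are a known source of several of them, and Cxcl12 is a classical stromal product that retains haematopoietic cells in bone marrow. Il6 and inflammatory chemokines are known targets of NF-kappaB, AP-1 and C/EBP factors, and Cxcl10 is also a known target of interferon-activated factors.

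In both 5-AZA samples each of the 10 mRNAs was above both untreated samples, an arrangement found in 36.8% of all genes tested (the opposite one, seen for 0 of the 10, was found in 25.4%). Of the 10 genes, 7 were called higher after 5-AZA, against 13.1% of all genes tested, and 0 were called lower, against 1.32%. Because the 10 genes were chosen with earlier results of these data known, such shares describe them and are no independent test of enrichment. The 7 were Ccl2, Ccl5, Ccl7, Cxcl1, Cxcl5, Cxcl10 and Il6, while Cxcl12, Cx3cl1 and Csf1 had adjusted p-values below 0.05 with changes under 2-fold (limma). Without adjustment, limma gave p-values below 0.05 for 10 genes with higher and 0 with lower values, against 3220 and 1464 of all 13199 genes. The median log2 fold change was 1.63 for the 10 genes and 0.05 for all genes tested. Cxcl10 passed the limit on low values only through the 5-AZA samples, and the other 9 genes reached it in the untreated group too. Genes that pass only in that way had to be high after 5-AZA, and 77.2% of 1069 such genes were called higher, against 7.41% of the other 12130. In bulk RNA fewer cells of a type and less RNA per cell cannot be told apart, and the same holds for a rise.

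The count of 7 depended on the samples and on the limit on low values, without which it was 3 (Cxcl1, Cxcl5 and Cxcl10). With eBayes without trend it was 6, Ccl2 being lost (adjusted p = 0.0627 by limma, in a range from 1.27e-07 to 0.279). Without untreated replicate 1 it was 8 (Cx3cl1 was added), and without untreated replicate 2 it was 5 (Ccl2 and Ccl7 fell under the 2-fold limit). Without either 5-AZA replicate 101 or 5-AZA replicate 102 it was 1, Cxcl5, with log2 fold changes of the 10 genes still above 0. The single remaining sample of a group is then assumed to vary like the other group.

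**Figure D1:**
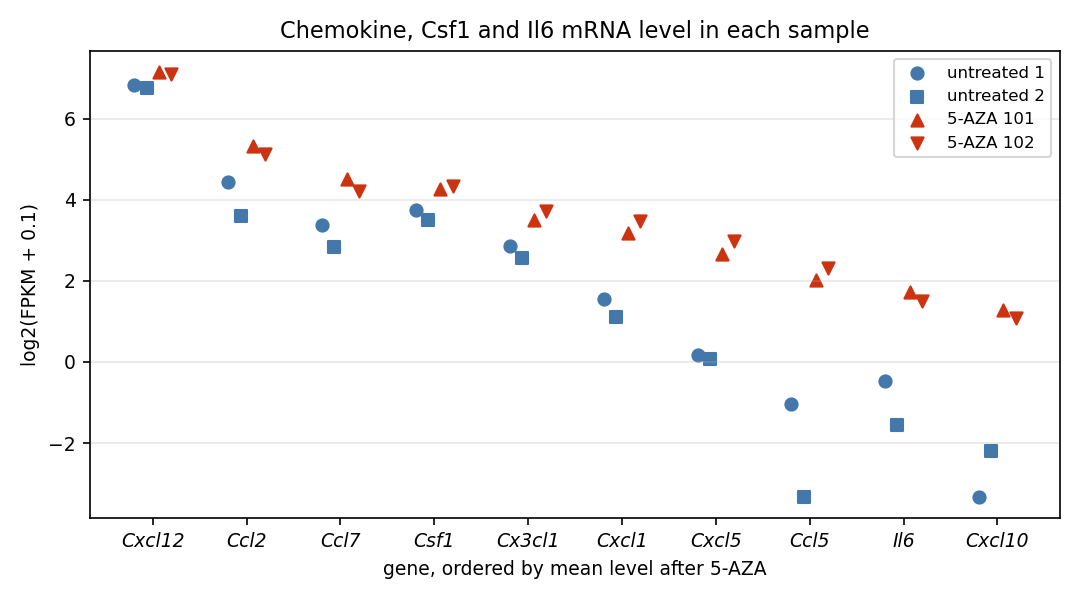
mRNA level of each gene in each of the 4 samples, as log2(FPKM + 0.1), with untreated samples in blue and 5-AZA samples in red. Genes are ordered by their mean level after 5-AZA, from Cxcl12 at 139 to 142 FPKM down to Cxcl10 at 2.04 to 2.31 FPKM, and the red points lie above the blue points for each gene.

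The levels spanned a wide range in either group. In the untreated samples the order by mean was Cxcl12, Ccl2, Csf1, Ccl7, Cx3cl1, Cxcl1, Cxcl5, Il6, Ccl5 and Cxcl10, in which the values of Ccl2 and Csf1, of Ccl7 and Cx3cl1, of Il6 and Ccl5, and of Ccl5 and Cxcl10 overlapped. After 5-AZA the order was Cxcl12, Ccl2, Ccl7, Csf1, Cx3cl1, Cxcl1, Cxcl5, Ccl5, Il6 and Cxcl10, in which only the neighbours Ccl7 and Csf1 overlapped. Summed over the 10 genes, the level was 172 and 148 FPKM in the untreated samples and 260 and 254 FPKM in the 5-AZA samples. Cxcl12 made up 66.7% and 73.3% of that sum in the untreated samples and 54.7% and 54.6% in the 5-AZA samples. Untreated replicate 1 was above untreated replicate 2 for 9 of the 10 genes, Cxcl10 being the exception, and for 63.5% of all genes tested.

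Markers of other cell types moved between the same samples, and their part in the changes of the 10 genes was not tested. For comparison, 13.1% of all genes tested were called higher and 1.32% lower. Skeletal muscle markers were called higher for 8 of 8 genes (median 8.03, 5 of them passing the limit only through the 5-AZA samples), with a summed level of 1.44 and 1.01 FPKM in the untreated and 721 and 1117 FPKM in the 5-AZA samples, Mylpf being the most abundant. Adipocyte markers were called higher for 5 of 5 genes (median 6.10, 1 of them, Cidec, passing only in that way), with a summed level of 31.5 and 14.2 FPKM in the untreated and 1072 and 1468 FPKM in the 5-AZA samples, Fabp4 being the most abundant, and 2 of the 5 were called higher without 5-AZA replicate 101 or 102. In both lists 5-AZA replicate 102 was above 101, whereas for the 10 genes 5-AZA replicate 101 was the higher one for 5, and for 25.4% of all genes tested.

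Of 12 immune cell markers 2 were tested and 1 was called higher, Cd68, also found in other cells, and the summed level was 2.12 and 3.18 FPKM in the untreated and 3.35 and 5.41 FPKM in the 5-AZA samples. Cd68, the most abundant of them after 5-AZA, was at 1.16 and 1.47 FPKM in the untreated and 2.27 and 3.69 FPKM in the 5-AZA samples (log2 fold change 1.09, adjusted p = 0.0191 by limma). It was not called under 10 of the 13 alternatives, among them those without untreated replicate 1 (log2 fold change 0.94) and without 5-AZA replicate 101 or 102 (adjusted p = 0.102 or 0.207, in a range from 0.00607 to 0.207). Lyz2, the other one tested, was at 0.957 and 1.70 FPKM in the untreated and 0.800 and 1.45 FPKM in the 5-AZA samples, with overlapping groups (log2 fold change -0.22, adjusted p = 0.707 by limma). The defining markers Adgre1, Tyrobp, C1qa, Cd3e and Kit were listed at 0 in all 4 samples, and Ptprc was at 0.0631 FPKM in 5-AZA replicate 101 and at 0 in the other samples. Below the limit on low values, Laptm5 was at 0 and 0.0185 FPKM in the untreated and 0.1297 and 0.245 FPKM in the 5-AZA samples, and Itgam and Fcgr1, at most 0.0748 FPKM, were also above the untreated values in both 5-AZA samples. Of 5 endothelial markers 4 were tested and 2 were called higher, Emcn and Cdh5, with a summed level of 0.303 and 0.234 FPKM in the untreated and 2.98 and 2.19 FPKM in the 5-AZA samples. Both passed the limit only through the 5-AZA samples, and after quantile normalization 1 was called higher and 1, Vwf, lower. Cdh5 was also lost with a pseudocount of 1 FPKM, with no limit on low values, with curated transcripts alone and with the most abundant transcript. Emcn was the most abundant of them after 5-AZA, Vwf in the untreated samples, and Tie1 was listed at 0 in all 4 samples. Mesenchymal markers of the labelled cell type were present, with Vim the most abundant, and their summed level was 2908 and 3000.3 FPKM in the untreated and 1917 and 2114 FPKM in the 5-AZA samples. The most abundant, Vim, was at 2268 and 2406 FPKM in the untreated and 1178 and 1380 FPKM in the 5-AZA samples (log2 fold change -0.87, adjusted p = 0.00119 by limma), whereas the median of the 9 tested was 0.30, and 6 of the 9, Thy1, Ly6a, Pdgfra, Pdgfrb, Eng and Cd44, were higher in both 5-AZA samples without overlap. The other 3, Vim, Col1a1 (log2 fold change -0.52, adjusted p = 0.0402 by limma) and Itgb1 (log2 fold change -0.08), were lower in both without overlap. Of all genes tested, 36.8% were higher and 25.4% lower in both 5-AZA samples without overlap. Of the 9, Thy1 was called higher, from 0.578 and 0.785 FPKM to 10.4 and 14.2 FPKM, and Nt5e was at 0 in both untreated samples.

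Ccl2, which attracts monocytes through the receptor Ccr2, was the most abundant CC chemokine of the set. It was at 21.7 FPKM in untreated replicate 1, 12.1 FPKM in untreated replicate 2, 40.2 FPKM in 5-AZA replicate 101 and 35.0 FPKM in 5-AZA replicate 102, and values are given in this order of samples. The 5-AZA samples were the higher ones, and the untreated samples differed from each other more than the 5-AZA samples did. The log2 fold change of Ccl2 was 1.20 (standard error, SE, 0.23, adjusted p = 0.00561 by limma). Ccl7, a close relative that also attracts monocytes, was at 10.3 and 6.99 FPKM in the untreated and at 22.7 and 18.6 FPKM in the 5-AZA samples. Again both 5-AZA samples were higher without overlap, with a log2 fold change of 1.27 (SE 0.19, adjusted p = 0.00144 by limma). Without untreated replicate 2 the log2 fold change was 0.79 for Ccl2 and 0.99 for Ccl7, under the 2-fold limit. With no limit on low values the adjusted p-value was 0.160 for Ccl2 and 0.0933 for Ccl7, and without a trend in eBayes it was 0.0627 for Ccl2. Without 5-AZA replicate 101 or 102 it was 0.279 or 0.242 for Ccl2 and 0.181 or 0.153 for Ccl7, and over the 13 alternatives it ran from 1.27e-07 to 0.279 and from 1.24e-06 to 0.181.

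Ccl5, which attracts T cells and monocytes, was at 0.385 FPKM in untreated replicate 1, was listed at 0 in untreated replicate 2, and was at 3.99 and 4.92 FPKM in the 5-AZA samples. The 5-AZA samples were close to each other and far above both untreated samples. The log2 fold change was 4.36 (SE 0.61, adjusted p = 9.98e-04 by limma), the largest of the 10 genes on this scale, although without untreated replicate 2 it was 3.22, against 4.51 for Cxcl10. Because 1 untreated value was 0, its size rested on the pseudocount, and it was 6.14 with a pseudocount of 0.01 FPKM and 2.21 with 1 FPKM. The call was lost with no limit on low values (adjusted p = 0.104) and without 5-AZA replicate 101 (adjusted p = 0.182) or 102 (adjusted p = 0.207), and the adjusted p-value of Ccl5 ran from 4.92e-12 to 0.207 over the 13 alternatives. The genes most like Ccl5 among all tested, by the root mean square difference of log2(FPKM + 0.1) over the 4 samples, were Gm40498 (0.40), Tubb2b (0.43) and H2-Q6 (0.53). H2-Q6 belongs to a family of near-identical class I genes, so its own level is uncertain.

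Cxcl1, a neutrophil attractant that acts through Cxcr2, was at 2.82 and 2.07 FPKM in the untreated and at 8.93 and 11.1 FPKM in the 5-AZA samples. Both 5-AZA samples were above both untreated samples by more than the spread within either pair. The log2 fold change of Cxcl1 was 2.00 (SE 0.20, adjusted p = 1.33e-04 by limma). Cxcl5, another Cxcr2 ligand, was at 1.03 and 0.949 FPKM in the untreated and at 6.20 and 7.76 FPKM in the 5-AZA samples. The untreated values nearly coincided and both 5-AZA values lay far above them. Its log2 fold change was 2.69 (SE 0.20, adjusted p = 2.47e-05 by limma), and Cxcl5 was called under each of the 13 alternatives, with log2 fold changes from 2.00 to 2.85. Without 5-AZA replicate 101 or 102 Cxcl1 was not called (adjusted p = 0.0794 or 0.102), and its adjusted p-value ran from 4.72e-08 to 0.102 over the alternatives.

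Cxcl10, which attracts activated T cells through Cxcr3, was listed at 0 in untreated replicate 1, was at 0.120 FPKM in untreated replicate 2, and was at 2.31 and 2.04 FPKM in the 5-AZA samples. The mRNA was thus near or at 0 in the untreated samples and low but similar in both 5-AZA samples. The log2 fold change of Cxcl10 was 3.94 (SE 0.40, adjusted p = 1.59e-04 by limma), and it was 5.92 with a pseudocount of 0.01 FPKM and 1.58 with 1 FPKM. Without 5-AZA replicate 101 or 102 the adjusted p-value was 0.107 or 0.109, within a range from 2.51e-09 to 0.109 over the 13 alternatives.

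Upstream sequences were examined because several of these mRNAs were higher together. RefSeq windows of 250 bases before the gene start (GRCm38.p6) matched 6 of the 10 genes, 3 of them called, and not Ccl2, Ccl5, Ccl7 and Cxcl5, and 32851 windows of all genes served for comparison. The motifs searched on both strands were kappaB (by name), the interferon regulatory factor (IRF) motif GAAANNGAA, the AP-1 motif TGANTCA and the C/EBP motif TTGCNNAA, and TATAAA was searched on the gene's strand. They were held by 7.25%, 7.13%, 6.75%, 9.56% and 7.59% of all windows. A kappaB match was in 4 of the 6 windows, those of Csf1, Cxcl1, Cxcl10 and Il6, an AP-1 match in those of Cxcl10 and Il6, an IRF match in that of Cxcl10, a C/EBP match in that of Il6 and TATAAA in that of Cx3cl1. Csf1 was not called, so a kappaB match was not confined to called genes. The windows of Cxcl10 (chr5:92348890-92349139, minus strand), Cxcl1 (chr5:90890995-90891244, plus strand) and Cxcl12 (chr6:117168285-117168534, plus strand) are shown 5′ to 3′ to compare called CXC genes with the abundant one that was not called. Capitals mark, in Cxcl10 from the left, the IRF match, a kappaB match, a pair of kappaB matches overlapping by 9 bases and the AP-1 match, and in Cxcl1 kappaB matches on both strands that overlap by 9 bases.
Cxcl10: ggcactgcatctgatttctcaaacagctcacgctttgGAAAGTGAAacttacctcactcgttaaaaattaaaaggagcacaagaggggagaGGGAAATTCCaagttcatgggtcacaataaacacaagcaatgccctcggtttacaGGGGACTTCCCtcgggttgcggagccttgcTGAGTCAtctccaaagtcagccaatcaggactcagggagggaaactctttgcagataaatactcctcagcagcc
Cxcl1: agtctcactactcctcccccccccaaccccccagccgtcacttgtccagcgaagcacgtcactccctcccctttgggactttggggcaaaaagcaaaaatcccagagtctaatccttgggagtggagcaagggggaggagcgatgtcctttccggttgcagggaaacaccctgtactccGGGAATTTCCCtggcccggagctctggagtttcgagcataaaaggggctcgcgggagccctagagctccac
Cxcl12: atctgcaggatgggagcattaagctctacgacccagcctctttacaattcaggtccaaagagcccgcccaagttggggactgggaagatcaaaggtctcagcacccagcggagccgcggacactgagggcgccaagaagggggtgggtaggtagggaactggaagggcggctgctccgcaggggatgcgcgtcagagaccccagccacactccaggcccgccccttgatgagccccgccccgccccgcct
None of the 5 motifs was found in the window of Cxcl12, which says only that these letters are not in it. CpG pairs, the sites of DNA methylation, numbered 14 in the windows of Cxcl12 and Cx3cl1, 10 in those of Cxcl1 and Csf1, 5 in that of Cxcl10 and 3 in that of Il6, against a median of 6 over all windows. A match is a description of the letters, and methylation and factor binding were not measured here.

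Cxcl12, the ligand of Cxcr4 and Ackr3, was the most abundant of the 10 mRNAs, at 115 and 108 FPKM in the untreated and 142 and 139 FPKM in the 5-AZA samples. The 5-AZA samples were higher without overlap, but by little compared with the other chemokines. The log2 fold change of 0.34 (SE 0.09, adjusted p = 0.0296 by limma) was under the 2-fold limit, and Cxcl12 was not called under any of the 13 alternatives. Its transcript variant 1 (NM_021704.3) was at 65.2 and 53.0 FPKM in the untreated and at 92.9 and 94.4 FPKM in the 5-AZA samples. Variant 2 (NM_013655.4) was at 44.1 and 51.3 FPKM in the untreated and at 45.7 and 41.5 FPKM in the 5-AZA samples, so its groups overlapped. Variant 3 (NM_001012477.2) was at 5.23 and 4.08 FPKM in the untreated and at 3.85 and 2.78 FPKM in the 5-AZA samples. The share of Cxcl12 listed under variant 1 was 56.9% and 48.9% in the untreated and 65.2% and 68.1% in the 5-AZA samples, without overlap. Fitted over 35557 transcripts, the log2 fold changes were 0.67, -0.13 and -0.49 for variants 1, 2 and 3, with adjusted p-values of 0.0654, 0.681 and 0.473 (limma), and the difference between the variants was not tested.

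**Figure D2:**
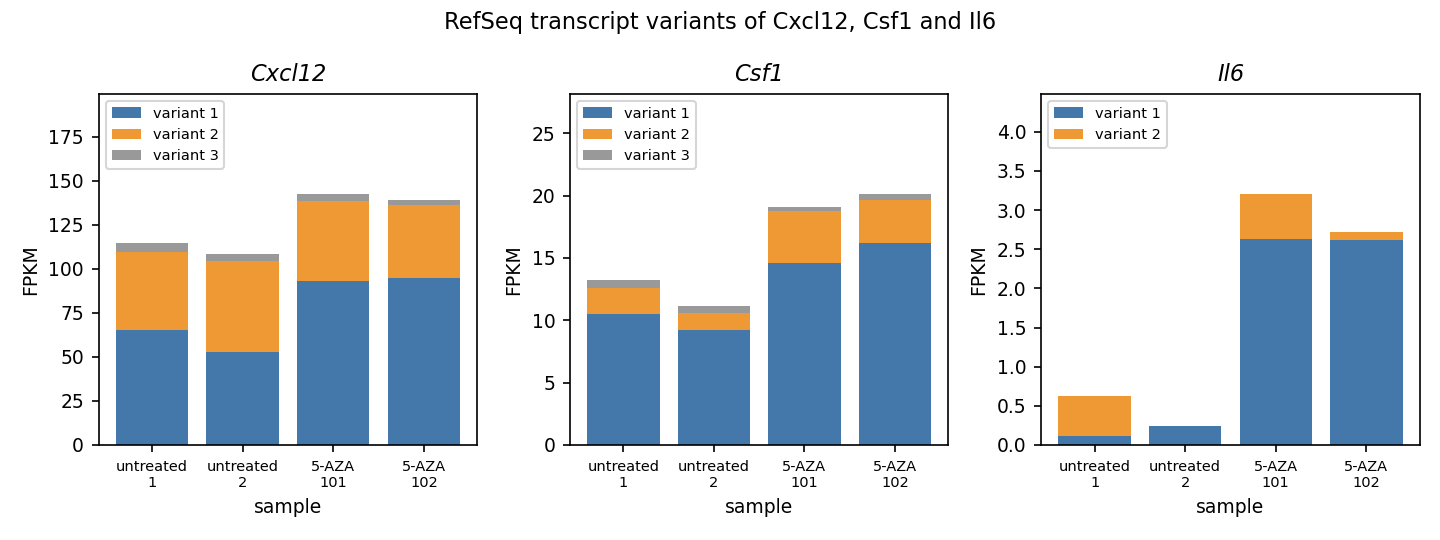
FPKM of each RefSeq transcript variant of Cxcl12, Csf1 and Il6 in the 4 samples, stacked so that the bar height is the gene's level. For Cxcl12 the part of variant 1 is larger in the 5-AZA samples (92.9 and 94.4 FPKM) than in the untreated samples (65.2 and 53.0 FPKM), while variant 2 overlaps between the groups.

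Cx3cl1, a membrane-anchored chemokine that can be shed and binds Cx3cr1, was at 7.16 and 5.86 FPKM in the untreated and 11.3 and 13.1 FPKM in the 5-AZA samples. Both 5-AZA samples were higher, and the log2 fold change of 0.90 (SE 0.15, adjusted p = 0.00283 by limma) was just under the 2-fold limit. It was 1.04 without untreated replicate 1, which made Cx3cl1 a called gene (adjusted p = 5.52e-04, in a range from 5.52e-04 to 0.153). Csf1, the growth factor of macrophages, was at 13.2 and 11.2 FPKM in the untreated and 19.1 and 20.1 FPKM in the 5-AZA samples. The groups did not overlap, and the log2 fold change of 0.69 (SE 0.13, adjusted p = 0.00449 by limma) was under 2-fold, as it was under each of the 13 alternatives. Variant 1 of Csf1 (NM_007778.4) was at 10.5 and 9.18 FPKM in the untreated and at 14.6 and 16.2 FPKM in the 5-AZA samples, and variant 2 (NM_001113529.1) at 2.10 and 1.42 FPKM and at 4.20 and 3.46 FPKM. Variant 3 was below 1 FPKM in each sample. Neither variant 1 nor variant 2 passed the adjusted threshold over 35557 transcripts (adjusted p = 0.124 and 0.177 by limma).

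Il6, a cytokine that signals through Il6ra and Il6st to Stat3, was at 0.621 and 0.240 FPKM in the untreated and at 3.21 and 2.72 FPKM in the 5-AZA samples. Both untreated samples were below 1 FPKM and both 5-AZA samples were above it. The log2 fold change was 2.63 (SE 0.36, adjusted p = 8.40e-04 by limma), and it was 1.48 with a pseudocount of 1 FPKM. The call of Il6 was lost without 5-AZA replicate 101 or 102 (adjusted p = 0.159 or 0.154, in a range from 6.30e-08 to 0.159) and with no limit on low values (adjusted p = 0.0781). Its transcripts were looked at after the values were seen. Variant 1 of Il6 (NM_031168.2) was at 0.116 and 0.240 FPKM in the untreated and at 2.63 and 2.61 FPKM in the 5-AZA samples. Variant 2 (NM_001314054.1) was at 0.505 and 1.22e-19 FPKM in the untreated and at 0.576 and 0.111 FPKM in the 5-AZA samples. In untreated replicate 1, 81.3% of Il6 was listed under variant 2. Variant 1 was called over 35557 transcripts (log2 fold change 3.33, adjusted p = 0.0368 by limma), as were Cxcl1, Cxcl5 and Cxcl10, against 2.1% of all transcripts called higher. The window before the start of Il6 (chr5:30012864-30013113, plus strand, GRCm38.p6, RefSeq) is shown because Il6 is the non-chemokine gene called here. Its capitals mark, from the left, the AP-1, C/EBP (on the minus strand) and kappaB matches, which do not overlap.
Il6: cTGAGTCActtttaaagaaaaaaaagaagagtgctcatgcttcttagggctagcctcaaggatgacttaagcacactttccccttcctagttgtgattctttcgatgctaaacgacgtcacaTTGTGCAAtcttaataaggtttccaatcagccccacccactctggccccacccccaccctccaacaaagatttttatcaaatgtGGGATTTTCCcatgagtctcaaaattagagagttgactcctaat

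**Figure D3:**
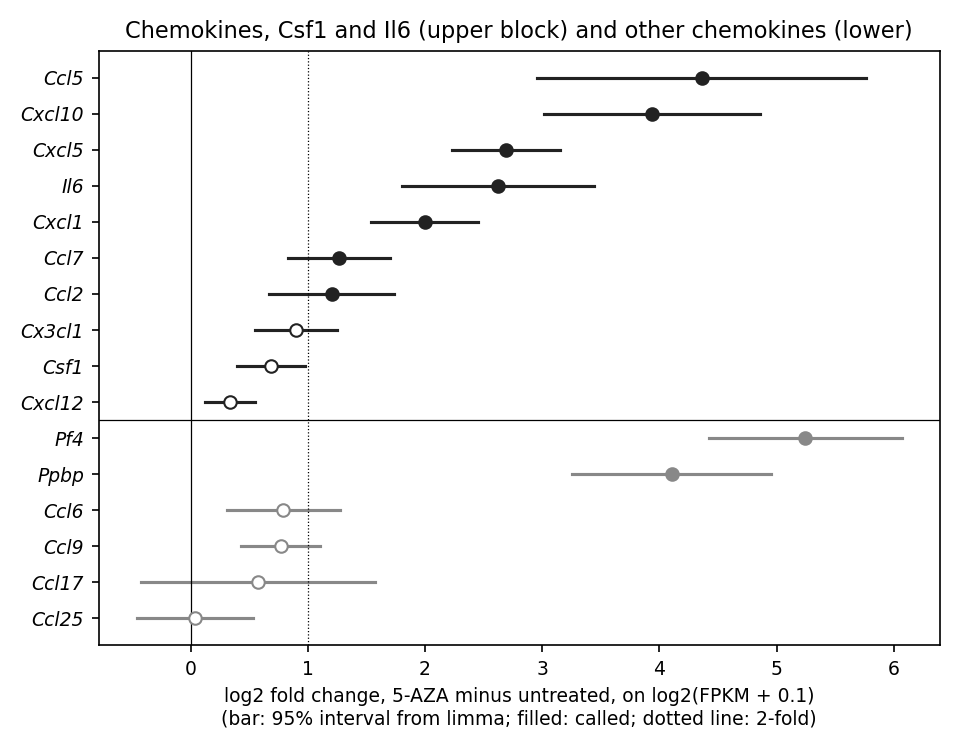
Log2 fold change of 5-AZA against untreated on the log2(FPKM + 0.1) scale with 95% intervals from limma, for the 10 genes (upper block) and for other tested chemokines not at 0 in both untreated samples (lower block). Filled points were called, and Cx3cl1, Csf1 and Cxcl12, at 0.90, 0.69 and 0.34, lie below the dotted 2-fold line.

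Beyond these genes, 27 other chemokine genes of a list of 28 had values. Of these, 8 were listed at 0 in all 4 samples, 7 more had a mean below 0.1 FPKM, and 12 were tested. Of the 12, 8 were called higher and 0 lower (by limma without adjustment, 10 and 0 had p-values below 0.05), with a median of 2.67, of which 6 values were set by the pseudocount because both untreated samples were at 0. These 8 all passed the limit on low values only through the 5-AZA samples, and of the 4 that reached it in the untreated group 0 were called. Of all 1069 genes that passed only in that way, 77.2% were called higher, against 7.41% of the other 12130. Under quantile normalization 7 of the 12 were called higher, with a median of 1.48. With a pseudocount of 1 FPKM 3 of the 12 were called higher, with no limit on low values 6 of 19, with a mean of at least 1 FPKM 2 of 5, and without 5-AZA replicate 101 or 102 6 of 12.

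Pf4, a platelet chemokine, was at 0 and 0.0787 FPKM in the untreated and 4.10 and 6.02 FPKM in the 5-AZA samples (log2 fold change 5.24, SE 0.36, adjusted p = 1.47e-05 by limma). Ppbp, also known from platelets, was at 0.0556 and 0 FPKM in the untreated and at 1.63 and 2.55 FPKM in the 5-AZA samples (log2 fold change 4.10, SE 0.37, adjusted p = 7.39e-05 by limma). Both mRNAs lost the call without 5-AZA replicate 101 or 102, with adjusted p-values of 0.0550 or 0.0675 for Pf4 (1.19e-12 to 0.0675 over the alternatives) and 0.0526 or 0.0675 for Ppbp (1.15e-08 to 0.0675). Cxcl13, which attracts B lymphocytes, was listed at 0 in both untreated samples and at 2.40 and 1.30 FPKM in the 5-AZA samples, and Ccl11, which attracts eosinophils and was not called with a pseudocount of 1 FPKM, at 0 in both and at 0.773 and 1.07 FPKM. Ccl9, the most abundant gene of the list, was at 7.87 and 10.04 FPKM in the untreated and 14.6 and 15.9 FPKM in the 5-AZA samples, a log2 fold change of 0.77 that was under 2-fold (adjusted p = 0.00548 by limma).

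Several of these genes lie side by side. In the RefSeq gene order of GRCm38.p6, Cxcl5, Ppbp, Pf4, Cxcl3, Cxcl15, Cxcl1 and Cxcl2 follow each other on chromosome 5, and the 6 of them that were tested were called higher. Of these 6, Ppbp, Pf4, Cxcl3 and Cxcl15 passed the limit on low values only through the 5-AZA samples, as 1069 genes did of which 77.2% were called higher, and Cxcl2 did not reach it. Cxcl3 and Cxcl15 were not called with a pseudocount of 1 FPKM (log2 fold changes 0.78 and 0.47) or with no limit on low values (adjusted p = 0.0699 and 0.0583 by limma), nor Cxcl15 after quantile normalization (adjusted p = 0.0857), and over the alternatives the adjusted p-value ran from 3.16e-04 to 0.0699 for Cxcl3 and from 0.00346 to 0.0857 for Cxcl15. The genes on either side were looked at after their values were seen. Rassf6, before Cxcl5, and Epgn, beyond Mthfd2l, were called higher, with log2 fold changes of 1.71 and 2.54 (adjusted p = 0.00631 and 8.93e-04 by limma). The log2 fold changes of Rassf6 and Epgn were 2.14 and 3.91 with a pseudocount of 0.01 FPKM, and 0.62 and 0.72 with 1 FPKM. Mthfd2l, between Cxcl2 and Epgn, was at -0.22 (adjusted p = 0.470 by limma). Elsewhere on chromosome 5, Cxcl9 and Art3 were called higher beside Cxcl10, and the log2 fold change of Art3 was 2.78 (adjusted p = 2.70e-04 by limma). The calls of Rassf6 and Art3 were lost without 5-AZA replicate 101 or 102 (adjusted p = 0.122 or 0.146 for Rassf6, in a range from 0.00233 to 0.165, and 0.0789 or 0.0783 for Art3, in a range from 1.09e-06 to 0.0789). The span of Art3 includes that of Cxcl10, and whether fragments were shared between them was not tested. The neighbours Sdad1 (-0.13), Nup54 (0.19) and Scarb2 (-0.04) were not called. On chromosome 11, Ccl2, Ccl7 and Ccl11 are adjacent and all were called, while Ccl9 and Ccl6 beside Ccl5 were not. The neighbours of Il6 that were tested, Ube3c (0.07), Dnajb6 (0.07) and Tyms (-0.07), were not called. Near Cxcl12 on chromosome 6, Rassf4 was called higher (log2 fold change 1.68, adjusted p = 0.0129 by limma) but not without 5-AZA replicate 102 (adjusted p = 0.0589, in a range from 0.0155 to 0.3295), and Zfp637, on the other side of Cxcl12, was at -0.94 (adjusted p = 2.34e-04 by limma), under 2-fold. Rassf6 and Rassf4 were also not called after quantile normalization, with a pseudocount of 1 FPKM, with no limit on low values, with curated transcripts alone or with the most abundant transcript, nor Epgn and Cxcl9 with that pseudocount. The tested genes up to 3 places from Cx3cl1 and Csf1 had adjusted p-values of 0.0532 or more (limma) and were not called.

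Of the 15 receptor genes listed for these ligands, 5 reached the limit on low values, and 1 was called higher and 0 lower (2 and 0 had p-values below 0.05 by limma without adjustment), with a median of 0.57 that was 0.08 after quantile normalization. Over all genes tested, 13.1% were called higher and 1.32% lower. Cxcr4, a receptor of Cxcl12, was at 0 and 0.0318 FPKM in the untreated and at 0.260 and 0.152 FPKM in the 5-AZA samples, so it was low in each sample and passed the limit only through the 5-AZA samples. Its log2 fold change of 1.39 (SE 0.43, adjusted p = 0.0452 by limma) was not called when any 1 of the 4 samples was left out (adjusted p = 0.261 and 0.122 without untreated replicates 1 and 2, 0.129 and 0.0970 without 5-AZA replicates 101 and 102). With no limit on low values the adjusted p-value was 0.0868, with a pseudocount of 1 FPKM 0.129, after centring 0.0666 and after quantile normalization 0.893, and over the alternatives it ran from 0.0222 to 0.893. Ackr3, the scavenging receptor of Cxcl12, was far more abundant, at 10.2 and 9.86 FPKM in the untreated and 16.9 and 18.7 FPKM in the 5-AZA samples, and its log2 fold change of 0.82 (adjusted p = 0.00125 by limma) was under 2-fold. Il6st, the signal-transducing subunit for Il6, was the most abundant receptor gene, at 61.0 and 52.8 FPKM in the untreated and 64.8 and 64.7 FPKM in the 5-AZA samples (log2 fold change 0.19, adjusted p = 0.240 by limma). Il6ra, the ligand-binding subunit, was at 0.519 and 0.440 FPKM and at 0.615 and 0.926 FPKM and was not called (log2 fold change 0.57, and -0.49 after quantile normalization). Cxcr2, the receptor of Cxcl1 and Cxcl5, was at 0.535 and 0.681 FPKM in the untreated and 0.580 and 0.288 FPKM in the 5-AZA samples, with overlapping groups, and was called lower only after quantile normalization (log2 fold change -1.56, adjusted p = 0.0388 by limma, in a range from 0.0388 to 0.892). The receptors Ccr1, Cxcr3 and Ackr1 were listed at 0 in all 4 samples, and Ccr2, Ccr3, Cxcr1, Ackr2, Cx3cr1 and Csf1r had a mean below 0.1 FPKM.

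Among 16 listed other cytokines 10 were tested (median 0.37). Of these limma called 4 higher and 1 lower, against 13.1% and 1.32% of all genes tested. After quantile normalization it called 1 higher, Il33, and 2 lower, Cntf and Il11 (median -0.00127), and with a pseudocount of 1 FPKM 1 higher and 0 lower. Il33, an alarmin stored in the nucleus, was at 0.745 and 0.871 FPKM in the untreated and 35.3 and 27.6 FPKM in the 5-AZA samples, where it was the most abundant gene of this list. Its log2 fold change of 5.11 (SE 0.18, adjusted p = 4.71e-07 by limma) was above that of each of the 10 genes on this scale, but not with a pseudocount of 0.01 FPKM (5.26, against 6.14 for Ccl5 and 5.92 for Cxcl10) or without untreated replicate 1 (5.01, against 5.50 for Ccl5). Tslp, Lif and Il34, a second ligand of the Csf1 receptor, were at or below 1.00 FPKM in each untreated sample and had log2 fold changes of 2.54, 1.60 and 1.45 (adjusted p = 0.00147, 0.0130 and 0.0109 by limma). Tslp and Lif passed the limit on low values only through the 5-AZA samples. Lif was not called without untreated replicate 1 or 2 (adjusted p = 0.0592 or 0.0520, in a range from 0.00371 to 0.597), nor Il34 without 5-AZA replicate 101 or 102 (adjusted p = 0.209 or 0.260, in a range from 1.83e-04 to 0.260). Il34 was also lost with no limit on low values (adjusted p = 0.145), with curated transcripts alone (0.116), with the most abundant transcript (0.117) and with a pseudocount of 1 FPKM, where its log2 fold change was 0.85, as were Tslp (0.57) and Lif (0.38) with that pseudocount. Cntf, named after its values were seen, was at 1.45 and 2.46 FPKM in the untreated and 0.889 and 0.870 FPKM in the 5-AZA samples and was called lower (log2 fold change -1.02, adjusted p = 0.0320 by limma). This call was lost without untreated replicate 2 (adjusted p = 0.275) and without 5-AZA replicate 101 or 102 (adjusted p = 0.272 or 0.287), with no limit on low values (0.178), with eBayes without trend (0.0657), with curated transcripts alone (0.0991), with the most abundant transcript (0.124) and with a pseudocount of 1 FPKM, where the log2 fold change was -0.63, and the adjusted p-value of Cntf ran from 0.00513 to 0.287 over the alternatives. Il1a, Il1b and Csf2 were listed at 0 in all 4 samples, and Tnf, known to induce several of the 10 genes, was at 0 in both untreated samples and at 0.0214 and 0.0733 FPKM in the 5-AZA samples.

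Interferon regulators included 6 called higher and 0 lower among 12 tested (8 and 0 had p-values below 0.05 by limma without adjustment), with a median of 1.16, and 6 was also the count after centring and after quantile normalization, and 5 without 5-AZA replicate 101 or 102. Over all genes tested, as reported, 13.1% were called higher and 1.32% lower. Irf7, a factor that drives interferon genes, was at 0.593 and 0.735 FPKM in the untreated and 9.84 and 9.38 FPKM in the 5-AZA samples (log2 fold change 3.67, SE 0.20, adjusted p = 4.46e-06 by limma). Ifih1, a sensor of double-stranded RNA, was listed at 0 in both untreated samples and at 1.58 and 1.75 FPKM in the 5-AZA samples, through which alone it passed the limit. Irf9 and Ddx58 had log2 fold changes of 1.87 and 1.77 (adjusted p = 1.21e-05 and 2.10e-05 by limma). Ifnb1 was listed at 0 in all 4 samples.

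Of 21 NF-kappaB and C/EBP genes, all tested, 2 were called higher and 0 lower (8 and 0 had p-values below 0.05 by limma without adjustment), with a median of 0.35. The shares over all genes tested were 13.1% and 1.32%, so calls were not more frequent in this list. Tnfaip3, an inhibitor of NF-kappaB signalling, was at 1.12 and 0.949 FPKM in the untreated and 2.77 and 2.73 FPKM in the 5-AZA samples (log2 fold change 1.33, adjusted p = 0.00229 by limma), and Bcl3 had a log2 fold change of 1.54 (adjusted p = 0.0274 by limma). Neither was called after quantile normalization, with a pseudocount of 1 FPKM or with the most abundant transcript, nor without 5-AZA replicate 101 (adjusted p = 0.0932 and 0.198) or 102 (adjusted p = 0.101 and 0.318), and Bcl3 was also lost without untreated replicate 2 (adjusted p = 0.121), with no limit on low values (0.192), with eBayes without trend (0.0723) and with curated transcripts alone (0.116). Over the alternatives the adjusted p-value ran from 0.00103 to 0.101 for Tnfaip3 and from 0.00233 to 0.414 for Bcl3. Chuk, the most abundant of the list after 5-AZA, was at 19.7 and 20.3 FPKM in the untreated and at 25.9 and 26.0 FPKM in the 5-AZA samples (log2 fold change 0.37). Among 8 Il6 signalling genes 0 were called (2 higher and 0 lower with a p-value below 0.05 by limma without adjustment), with a median of 0.08 that was -0.03 after centring. Stat3 and Ptpn11, the most abundant, had log2 fold changes of 0.42 and 0.15 (adjusted p = 0.0402 and 0.383 by limma). With eBayes without trend the adjusted p-value of Stat3 was 0.154. Among 10 mRNA decay factors 0 were called (1 higher and 3 lower unadjusted, limma), with a median of -0.03 that was -0.14 after centring and -0.29 after quantile normalization, where 1 was called lower, Zc3h12a. Zfp36l1 had a log2 fold change of 0.72 (adjusted p = 0.00157 by limma), under 2-fold. That of Zfp36l2 was -0.02 (adjusted p = 0.954 by limma), and 0.17 without untreated replicate 1. Among 10 tested genes of chemokine processing and presentation 0 were called (3 higher and 2 lower unadjusted, limma), with a median of 0.06 that was -0.05 after centring. Mmp2 and Mmp14 had log2 fold changes of 0.66 and -0.12 (adjusted p = 0.00132 and 0.468 by limma), under 2-fold.

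**Figure D4:**
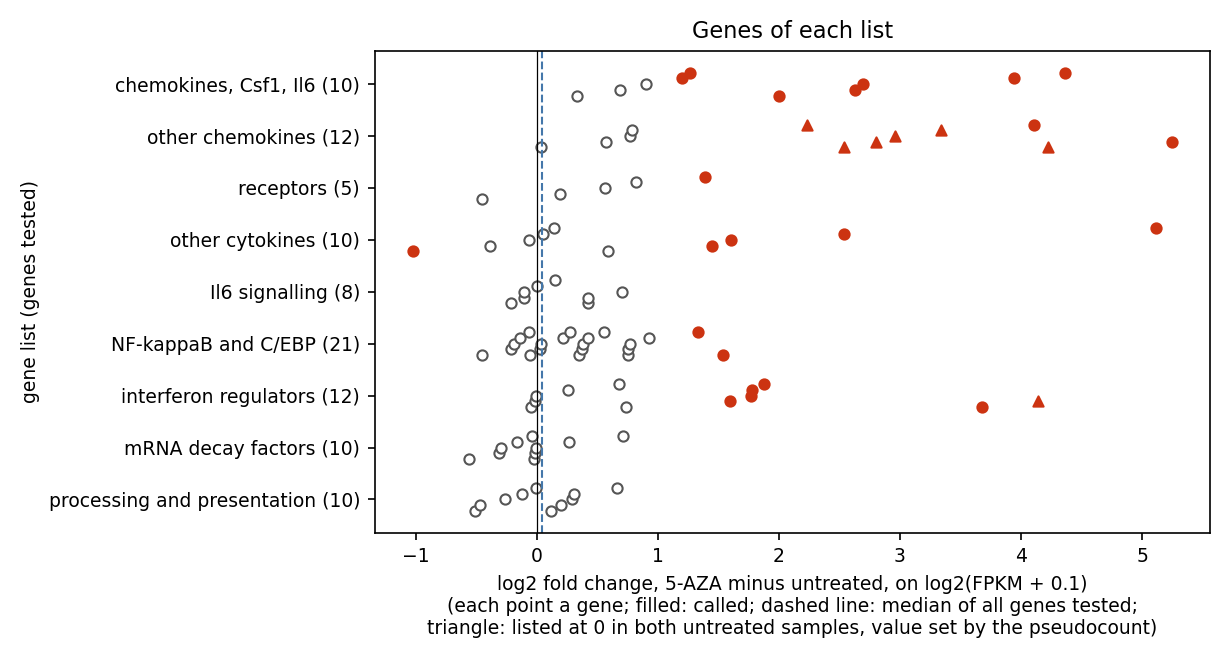
Log2 fold change of each tested gene, by list, on the log2(FPKM + 0.1) scale, with filled points for called genes and a dashed line at the median of all genes tested (0.05). Among other chemokines 8 of 12, among other cytokines 4 of 10 and among interferon regulators 6 of 12 were called higher, against 13.1% of all genes tested. Triangles, at 0 in both untreated samples, have values set by the pseudocount.

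In the pathway terms that the authors list beside the values, all 10 genes carried the term of cytokine and cytokine receptor interaction, which is on 264 genes of the table. The chemokine signaling term was on 8 of the 10, the TNF signaling term on 7 and the IL-17 signaling term on 6, of 183, 108 and 91 genes in the table. None of the 4295 circRNAs was listed with 1 of the 10 genes as its host.

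Scaling moved the median of all genes, from 0.05 as reported to -0.12 after quantile normalization and -0.06 after centring, and the split of 1724 genes called higher and 174 lower became 1041 and 886 or 1602 and 252. The median of the 10 genes was then 1.4995 or 1.53, and 7 of them were called under either scaling.

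**Figure D5:**
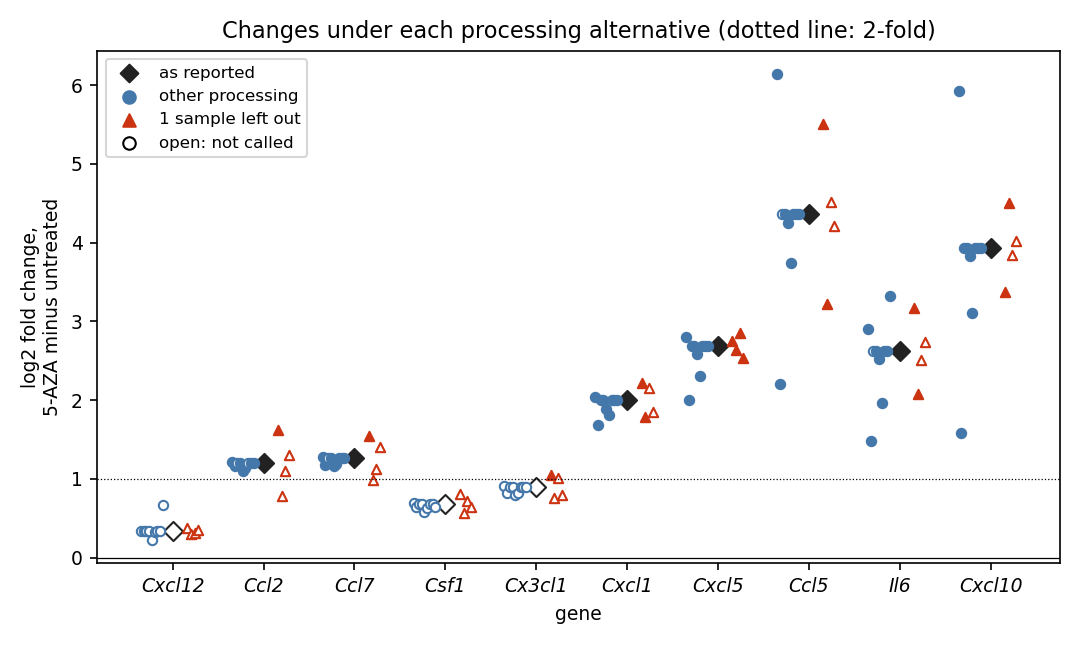
Log2 fold change of each of the 10 genes as reported (diamonds), under other processing (circles) and with 1 sample left out (triangles), where open symbols were not called. All values lie above 0, those of Ccl5 and Cxcl10 spread most (2.21 to 6.14 and 1.58 to 5.92), and Cxcl5 is called throughout.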

How the data were processed

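Total RNA of 2 untreated and 2 5-AZA samples was analysed. For each mRNA and lncRNA transcript the authors deposited FPKM values, and for each circRNA they deposited RPM values, which served here only for read totals and host genes. The submitters' processing notes name Trimmomatic, HISAT2, Bowtie2 2.2.9 and eXpress 1.5.1, without their roles, and the build mm9. The listed positions were checked: 2330 of 2356 circRNA host transcripts (98.9%) lay within 1000 bases of their RefSeq gene in GRCm38.p6. Of 131850 lncRNAs, 5513 started within 5 bases of a noncoding RefSeq gene start, against 34 when shifted by 1000 bases. A first check by the listed lncRNA classes was of no use, since 41.2% of the lncRNAs classed Antisense, 51.5% of Sense No Exonic, 50.9% of Exonic and 41.7% of Linc overlapped coding genes, and the classes were not used.

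Transcripts were summed per gene, and log2(FPKM + 0.1) of genes with a mean of at least 0.1 FPKM was fitted by the lmFit and trended eBayes steps of limma 3.58.1, run in R 4.3.3 on tables loaded through data.table version 1.17.8. The steps were tested on simulated data. There increases of 2 and 3 on the log2 scale were found for 97.6% and 100% of 500 genes each. Decreases of the same sizes were found less often, for 88% and 88.8%. Of the calls 1.53% were false. Each simulated gene had the spread typical of its level, and no change near the 2-fold limit was tried. These shares therefore do not carry over to such changes or to genes with a larger spread. The paper names DESeq for the authors' own comparison, and a count test was not used since FPKM values are not counts. The 10 genes and all lists were chosen with earlier results of these data known. Named are the 10 genes, up to 4 called genes of each list with the largest change, the most abundant gene of each list (2 for lists with no call), receptors of the 10 genes, the 3 genes most like Ccl5, and transcripts of genes with more than 1 transcript at 1 FPKM or more. Others were named after their values were seen. Some listed genes that this rule would name are not reported here. Alternatives changed the pseudocount, the limit on low values, the scaling, the variance model, the summing of transcripts, the adjustment and the samples. Fitting transcripts separately was added after seeing the data.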

Additional observations from a re-analysis of the deposited data

Results flagged for a closer look

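The lncRNA values entered none of the comparisons above. At 1 of the 10 genes, 1 lncRNA was above 0.1 FPKM in both 5-AZA samples and below it in both untreated samples. NONMMUT053065.2, a transcript of 1846 bases listed on the plus strand of chromosome 5 and overlapping the RefSeq span of Cxcl5, was at 0.00439 and 0.0306 FPKM in untreated replicates 1 and 2 and at 0.566 and 0.878 FPKM in 5-AZA replicates 101 and 102, a mean of 0.722 FPKM after 5-AZA. It was picked out because both 5-AZA values were above both untreated values, so this arrangement is no result. The values of Cxcl5 were arranged likewise, as were those of 36.8% of all genes tested. Whether fragments of Cxcl5 were assigned to this lncRNA, or the reverse, was not tested. Of 3 lncRNAs overlapping the 10 genes, the others were NONMMUT053106.2 at Cxcl10 and NONMMUT120786.1 at Cxcl5, the latter listed at 0 in all 4 samples. NONMMUT053106.2 was at 0 in both untreated samples, at 0.117 FPKM in 5-AZA replicate 101 and at 1.48e-65 FPKM in 5-AZA replicate 102.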

How the results depend on the processing

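Against 7 of the 10 genes called as reported, 3 were called with no limit on low values, 4 when transcripts were fitted separately (an alternative chosen after seeing the data), and 1 to 8 when each sample was left out in turn. Against 1898 genes called among all tested, 961 were called with a pseudocount of 1 FPKM, 1262 with no limit on low values and 967 with a mean of at least 1 FPKM, and 851 to 1797 with a sample left out. Against 22 genes called in the lists without cell type markers, 10 were called with a pseudocount of 1 FPKM, 11 with a mean of at least 1 FPKM and 14 to 21 with a sample left out. The limits on low values change how many genes are tested, and the cause of the other changes was not tested. Over 13 alternatives, 110 of 130 log2 fold changes of the 10 genes kept their direction and their side of the threshold, 19 lost the call, 1 gained it and 0 changed direction. For 28 genes of the lists these numbers were 306 of 352, 42, 1 and 3. Those that changed direction were Il6ra, at -0.49 after quantile normalization, and Zfp36l2, at 0.17 without untreated replicate 1 and 0.02 without 5-AZA replicate 101 (-0.20 to 0.17 over the samples left out). No paired analysis was possible because the groups share no replicate number. The number of samples and the unknown depth behind single FPKM values limit each result, most of all for genes near 0.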
